A study of Mus musculus with 26 samples.

Results

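The Sox factors described here are transcription factors that mark neural and glial progenitors, and they were followed at the mRNA level in murine oligodendrocyte progenitor cells (OPCs) and in the oligodendrocytes (OLs) differentiated from them. They were chosen by gene symbol, with earlier results of these data known. Of the 9 named, 8 (Sox2, Sox3, Sox4, Sox5, Sox6, Sox9, Sox11 and Sox12) were each listed by 1 transcript in both cell types, among 10104 transcripts listed in either and 8177 listed in both. Sox13 was not analysed here. The OPCs came from epiblast stem cells of the 129S/SvEv strain and were grown in bFGF and PDGFA. For the OLs, such OPCs were first passaged in growth medium without bFGF. They were then placed for 40 h in a medium with noggin, IGF-1, cyclic AMP, NT3 and the thyroid hormone T3. Both cell types then took up 5-ethynyluridine (5-EU), a uridine analogue, for 24 h. Uridine then took the place of the analogue, and the labelled RNA left after 0, 1, 2, 4 and 6 h of this chase was pulled down and sequenced. There were 3 OPC replicates (15 libraries) and 2 OL replicates (10 libraries). According to the study, some cells of the OL cultures stay undifferentiated, so the OL libraries are a mixture.

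Sox proteins bind DNA through an HMG box and act with partner proteins. The SoxB1 factors Sox2 and Sox3 keep neural progenitors undifferentiated. The SoxC factors Sox4, Sox11 and Sox12 are active in cells that leave the progenitor state. The SoxD factors Sox5 and Sox6 lack an activation domain of their own and restrain terminal oligodendrocyte differentiation, and the SoxE factor Sox9 specifies glia before its relatives Sox8 and Sox10 take over in maturing oligodendrocytes. Many mRNAs of transcription factors turn over fast, and AUUUA is the core of the AU-rich elements through which some unstable mRNAs are bound in their 3′ untranslated regions (3′ UTRs).

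Each 3′ UTR was searched, on the transcript strand, for ATTTA and for the longer motifs TATTTAT and TATTTAA, which both contain ATTTA. All 8 Sox mRNAs held ATTTA, as did 69.1% of the 10088 transcripts that could be read, and 7 held at least 1 of the longer motifs, as did 42.7%. Among transcripts within 10% of the same 3′ UTR length the share with a longer motif was 91.0% for Sox11, 83.4% for Sox6, 83.1% for Sox5, 70.7% for Sox12, 68.8% for Sox4, 62.2% for Sox9, 40.8% for Sox2 and 33.4% for Sox3. For ATTTA the share at like length was 100% for Sox11, 99.5% for Sox6, 99.3% for Sox5, 95.9% for Sox12 and 95.5% for Sox4. It was 92.5% for Sox9, 77.0% for Sox2 and 64.3% for Sox3. The 3′ UTR of Sox3 held none of the longer motifs. The windows below show 1 long motif from each of the other 7 mRNAs, since these mRNAs are compared for their decay further on. The letters are DNA letters of the GENCODE M21 transcripts on GRCm38, written 5′ to 3′, and the capitals mark the motif.
Sox2, chr3:34651822-34651850, plus strand: cttttgtacagTATTTATcgagataaaca
Sox4, chr13:28950188-28950216, minus strand: atatgtggacgTATTTATactggccaaac
Sox11, chr12:27335426-27335454, minus strand: aaattaagcatTATTTATtgaaaactatg
Sox12, chr2:152394343-152394371, minus strand: gaggtaagcagTATTTAAggtggtgtgct
Sox5, chr6:143828917-143828945, minus strand: actaaaggcagTATTTATtcagctcccct
Sox6, chr7:115474248-115474276, minus strand: gttatttcattTATTTATgcaaaatacat
Sox9, chr11:112786749-112786777, plus strand: tgtgctaaaatTATTTATtttgtaaggag

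The number of motifs is read beside the length of each 3′ UTR. Sox6 had 17 ATTTA motifs in 5574 bases, where the median of transcripts of like length was 9, Sox5 had 12 in 4839 (median 8), Sox9 had 6 in 2250 (median 3) and Sox2 had 4 in 1086 (median 1). Sox3 had 1 in 712, as did the median. The other 3 were below their medians, with 10 in 6957 bases for Sox11 (median 14), 4 in 2780 for Sox4 (median 5) and 2 in 2876 for Sox12 (median 5). The longer motifs numbered 6 in Sox6 (median 2), 4 in Sox5 (median 2), 3 in Sox4 (median 1) and 2 in Sox11 (median 3), and Sox2, Sox9 and Sox12 had 1 each (medians 0, 1 and 1). A match is only a description of the letters.

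The SoxD genes differed from the other 6 in structure and in codons. Sox2 (chr3:34650405-34652461), Sox3 (chrX:60891366-60893430), Sox4 (chr13:28948919-28953713) and Sox11 (chr12:27334264-27342574) have 1 exon, as do 3.04% of all transcripts, Sox12 (chr2:152393614-152398046) has 2 and Sox9 (chr11:112782224-112787760) has 3. The SoxD genes are long, with 15 exons in Sox5 (chr6:143828425-144209480) and 16 in Sox6 (chr7:115471344-116031047). In the 6 genes outside SoxD, 82.6 to 91.9% of codons ended in G or C, above the median transcript at 60.6%, whereas Sox5 had 60.6% and Sox6 55.2%. The study turns on the codons for phenylalanine (UUU and UUC) and lysine (AAA and AAG). Sox2 and Sox11 used UUC for all of their phenylalanines (2 and 12), and the UUU share was 9.09% in Sox9, 16.7% in Sox12, 20.0% in Sox3, 33.3% in Sox4, 35.7% in Sox6 and 50.0% in Sox5, beside a median of 44.4%. These shares rest on few codons, such as 1 UUU and 4 UUC in Sox3 and 1 UUU and 5 UUC in Sox12. Sox4, with 4 UUU and 8 UUC, was close to Sox6, with 5 UUU and 9 UUC. The AAA share of lysine codons was 5.88 to 17.6% in the 6 genes outside SoxD, 36.5% in Sox5 and 44.2% in Sox6, beside a median of 37.5%.

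Some of these genes overlap others. All 2057 bases of the Sox2 transcript lie within the body of Sox2ot, a noncoding gene on the same strand, though outside its annotated exons. In Sox4, 2616 bases coincide with exons of the noncoding gene Gm26735 on the opposite strand, and in Sox5 69 bases coincide with Sox5os1. Whether reads were counted by strand is not given in the sources used here. Reads of Gm26735 and Sox5os1, on the opposite strand, therefore cannot be told apart from those of Sox4 and Sox5. Reads from the body of Sox2ot could not be told apart from those of Sox2 even by strand.

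The labels were checked against cell type markers at 0 h. There the summed level of 10 oligodendrocyte markers was 39.2 to 57.5 FPKM in the OPC replicates, where 3 of the 10 were listed, and 6443 and 2983 FPKM in OL replicates 1 and 2, where all 10 were. The 3 listed in both were higher in OLs (Mbp by 9.27, Ugt8a by 5.97 and Cnp by 4.54 on the log2 scale). FPKM counts fragments per kilobase of a transcript, relative to all mapped reads of its library, and the number of reads behind a value is unknown. The 6 OPC markers summed to 1511 to 1692 FPKM in OPCs, of which Olig1 made up 1009 to 1079, and to 1383 and 1196 in OLs. Olig1 (log2 −0.88) and Olig2 (−0.67) were lower in OLs, Pdgfra was higher (1.70), and Gpr17, which peaks in cells committed to differentiate, went from 5.00 to 6.61 FPKM in OPCs to 323 and 299 in OLs (log2 5.51, limma adjusted p = 2.52e-06). Markers of other cell types were listed too, and whether they came from such cells or from the lineage itself was not tested. Astrocyte markers summed to 419 to 503 FPKM in OPCs (4 of 7 listed) and to 385 and 669 in OLs (6 of 7 listed), with Gfap listed only for OLs, at 6.86 and 8.12 FPKM. Neuron markers summed to 83.3 to 189 FPKM in OPCs (3 of 7) and to 238 and 212 in OLs (4 of 7), and neural stem cell markers to 1549 to 1994 FPKM in OPCs and 1022 and 1252 in OLs (5 of 6 in both). Of these, Slc1a2 (log2 1.60) and Dcx (1.60) were called higher in OLs and Slc1a3 (−0.72), Nes (−1.77) and Vim (−1.41) lower. None of the 6 pluripotent cell markers was listed. The part of these markers in the results on Sox mRNAs was not tested.

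The comparison at 0 h asked how much labelled Sox mRNA each cell type held after 24 h of labelling. Sox2 and Sox6 were higher in OLs, Sox11 and Sox12 were lower, and Sox3, Sox4, Sox5 and Sox9 did not pass the test. Thus 2 of 8 were called higher, where 14.1% of the 8177 transcripts were, and 2 of 8 lower, where 17.5% were. The test was limma on log2(FPKM + 1) with Benjamini-Hochberg adjustment over all transcripts and a threshold of 0.05, and fold changes are on that scale. The 0 h values were taken as FPKM without the spike-in scale, so they are shares of each library. The study calls the replicates biological and states that the OL replicates match a pair of the OPC replicates. The labels do not number that match. In these cultures, fewer cells that express a gene and less RNA per cell cannot be told apart.

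Within SoxB1, Sox2 was at 36.4, 58.2 and 52.2 FPKM in OPC replicates 1, 2 and 3 and at 135 and 121 FPKM in OL replicates 1 and 2. Both OL replicates lay above every OPC replicate, and the rise was 1.40 ± 0.22 on the log2 scale (SE, n = 3 and 2 replicates, limma adjusted p = 0.00166), or 2.63-fold. Sox3 was at 24.3, 34.2 and 33.8 FPKM in OPCs and at 21.6 and 27.5 in OLs. These ranges overlapped, with a log2 difference of −0.31 ± 0.24 (limma adjusted p = 0.346). Sox2 made up 60.0 to 63.0% of the sum of Sox2 and Sox3 in OPCs and 86.2% and 81.5% of it in OLs.

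Within SoxC, Sox11 was at 35.4, 77.5 and 55.6 FPKM in OPCs and at 14.5 and 16.1 FPKM in OLs. Its OL replicates lay below all OPC replicates, and it fell by 1.74 ± 0.30 on the log2 scale (limma adjusted p = 0.00255). Sox12 was at 34.6, 36.3 and 40.0 FPKM in OPCs and at 16.5 and 18.3 in OLs, a fall with no overlap of −1.04 ± 0.20 (limma adjusted p = 0.00456). Sox4, the most abundant of the 8 per length in both cell types, was at 90.0, 143 and 114 FPKM in OPCs and at 164 and 151 in OLs. Both OL values were the highest, but the log2 difference of 0.47 ± 0.21 did not pass (limma adjusted p = 0.124). Without OPC replicate 2, whose Sox4 level was nearest to the OLs, it passed at 0.63 (limma adjusted p = 0.0337), and without OPC replicate 1 it was 0.30 (limma adjusted p = 0.267). The sum of the SoxC mRNAs was 160, 257 and 210 FPKM in OPCs and 195 and 186 in OLs, so the sums overlapped while their makeup differed. Sox4 made up 54.4 to 56.3% of the sum in OPCs and 84.1% and 81.5% in OLs, and Sox11 made up 22.1 to 30.2% and then 7.41% and 8.67%.

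The 2 SoxD genes did not move alike. Sox6 was at 30.7, 30.9 and 32.0 FPKM in OPCs, the tightest replicates of any of the 8, and at 65.6 and 63.0 in OLs. The rise was 1.02 ± 0.18 on the log2 scale (limma adjusted p = 0.00267), or 2.03-fold. Sox5 was the lowest of the 8 in both cell types, at 3.66, 12.2 and 9.50 FPKM in OPCs and 5.52 and 7.39 in OLs. The OL values fell inside the OPC range, and the log2 difference was −0.23 ± 0.43 (limma adjusted p = 0.718). The 95% interval of that difference ran from −1.20 to 0.74, which leaves out a rise of the size seen for Sox6 but not a fall of that size.

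Among SoxE genes, Sox9 was at 52.9, 53.4 and 36.6 FPKM in OPCs and at 58.9 and 72.4 in OLs. Both OL values were above the OPC values, but the log2 difference of 0.47 ± 0.22 did not pass (limma adjusted p = 0.135). OL replicate 2, the higher for Sox9, was also the higher OL replicate in the astrocyte marker sum and the lower in the oligodendrocyte marker sum. This was not particular to Sox9, since Sox3, Sox5, Sox11 and Sox12 were also higher in OL replicate 2. Sox2, Sox4 and Sox6 were lower in it. The Sox9 relatives Sox8 and Sox10, which are active in maturing oligodendrocytes, both passed. Sox8 was at 133, 145 and 172 FPKM in OPCs and 277 and 251 in OLs (log2 0.82 ± 0.19, limma adjusted p = 0.00952). Sox10 was at 25.4, 4.06 and 11.9 FPKM in OPCs and 111 and 89.0 in OLs (log2 3.07 ± 0.54, limma adjusted p = 0.00291). Of the 11 other Sox genes in the list, 4 were listed, and 3 of these were higher in OLs, where 14.1% of all transcripts were. Beside Sox8 and Sox10, the third was Sox21 (log2 1.11, limma adjusted p = 0.00974), and Sox1 differed by −0.40 (limma adjusted p = 0.374).

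**Figure D1:**
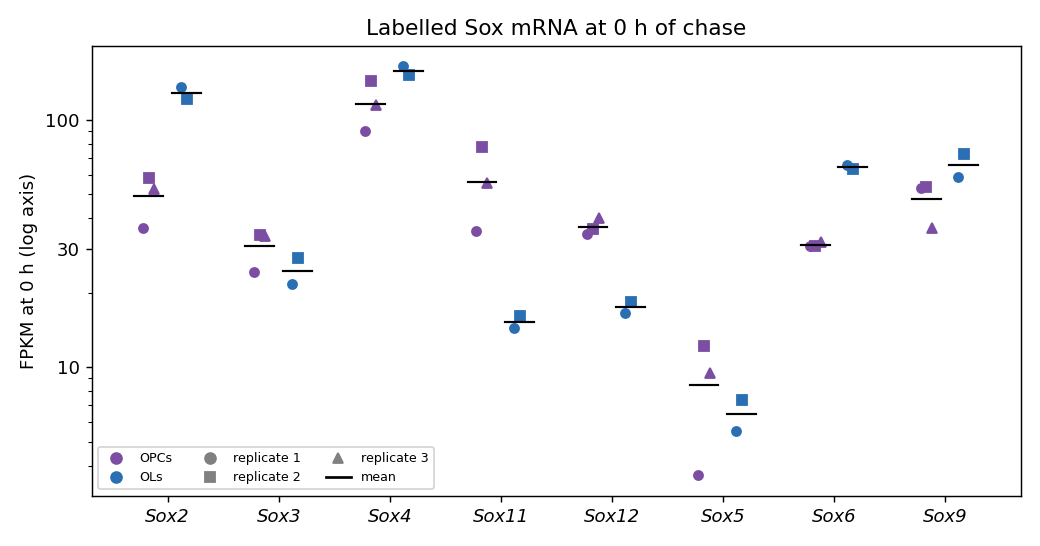
FPKM of labelled mRNA at 0 h of chase (log axis) for the 8 Sox genes in 3 OPC replicates (purple) and 2 OL replicates (blue), with a bar at each mean. The OL points of Sox2 and Sox6 lie above all OPC points and those of Sox11 and Sox12 lie below them, and the OL points of Sox4 and Sox9 lie above by less than the test required.

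Over the 8 genes, the OL values lay above all OPC values for 4 (Sox2, Sox4, Sox6 and Sox9), where 28.0% of all transcripts did, and below all of them for 2 (Sox11 and Sox12), where 31.4% did. In OPCs the order by mean FPKM was Sox4, Sox11, Sox2, Sox9, Sox12, Sox6, Sox3 and Sox5. The replicate ranges of neighbours overlapped from Sox11 through Sox12 and between Sox6 and Sox3, so only the positions of Sox4, of Sox5 and of the step from Sox12 to Sox6 were set apart. In OLs the order was Sox4, Sox2, Sox9, Sox6, Sox3, Sox12, Sox11 and Sox5, and only Sox9 and Sox6 overlapped. Sox11 thus stood second in OPCs, at a mean of 56.2 FPKM, and seventh in OLs, at 15.3 FPKM.

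Known partners and targets of Sox factors were counted from a list of 25 genes, of which 21 were listed in both cell types. At 0 h, 3 were higher in OLs, where 14.1% of all transcripts were, and 8 were lower, where 17.5% were. The POU factor Pou3f1 went from 36.9 to 56.5 FPKM in OPCs to 5.05 and 3.60 in OLs (log2 −3.08, limma adjusted p = 6.46e-05). Tead2, a TEAD factor downstream of Sox4 and Sox11, went from 80.3 to 82.3 FPKM in OPCs to 3.38 and 6.80 in OLs (log2 −3.82, limma adjusted p = 2.32e-05). The cyclin gene Ccnd1 (log2 −2.49), the nuclear factor I genes Nfia (−1.06) and Nfib (−1.10), the lineage factors Olig1 (−0.88) and Olig2 (−0.67) and the corepressor Ctbp1 (−0.63) were the others called lower. Tcf7l2, a Wnt pathway factor of premyelinating oligodendrocytes, went from 15.6 to 25.9 FPKM in OPCs to 91.3 and 71.7 in OLs (log2 1.97, limma adjusted p = 0.000424). Pdgfra, the PDGF receptor of OPCs, went from 11.5 to 26.5 FPKM in OPCs to 66.9 and 43.9 in OLs (log2 1.70, limma adjusted p = 0.00591), so this progenitor marker was higher in the libraries labelled OL. Dcx, a gene of young neurons (log2 1.60, limma adjusted p = 0.0146), was the third called higher.

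The decline of labelled mRNA during the chase was described by the level left relative to 0 h, on the scale of labelled spike-in RNA. All 8 Sox mRNAs fell in both cell types. By 4 h, each of the 8 stood below the median transcript of its library in every OPC replicate, and 7 and 8 of them did in OL replicates 1 and 2. At 4 h the 8 had 0.824 to 28.4% of their 0 h level left over the OPC replicates, whereas the median transcript had 39.0%, 20.4% and 37.0% left. In OLs at 4 h they had 13.6 to 58.7% left, beside medians of 55.4% and 55.0%. By 6 h the position in OPCs was no longer uniform, since 4, 3 and 5 of the 8 were below the library median in the OPC replicates, while 6 and 8 of them were below it in OLs.

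Sox2 and Sox9 had the least left of the 8 at 2 h in each OPC replicate. Sox2 had 7.72%, 19.4% and 38.2% left and Sox9 had 10.6%, 18.4% and 37.0%, while the other 6 kept 23.0 to 75.3%. In OLs at 2 h the least was left of Sox2, with 20.7% and 34.6%, and of Sox4, with 24.5% and 34.4%. Sox5 had 35.7% and 40.4%, Sox9 had 35.7% and 48.8%, and Sox11 had 37.9% and 48.8%. In OPCs at 2 h Sox4 kept 28.4%, 53.5% and 71.8%. At 1 h a few values were near or above 100%, such as Sox3 in OPC replicate 2 (124%) and Sox2 in OL replicate 2 (102%). Those libraries were high as a whole, with library medians of 95.3% and 95.5%.

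**Figure D2:**
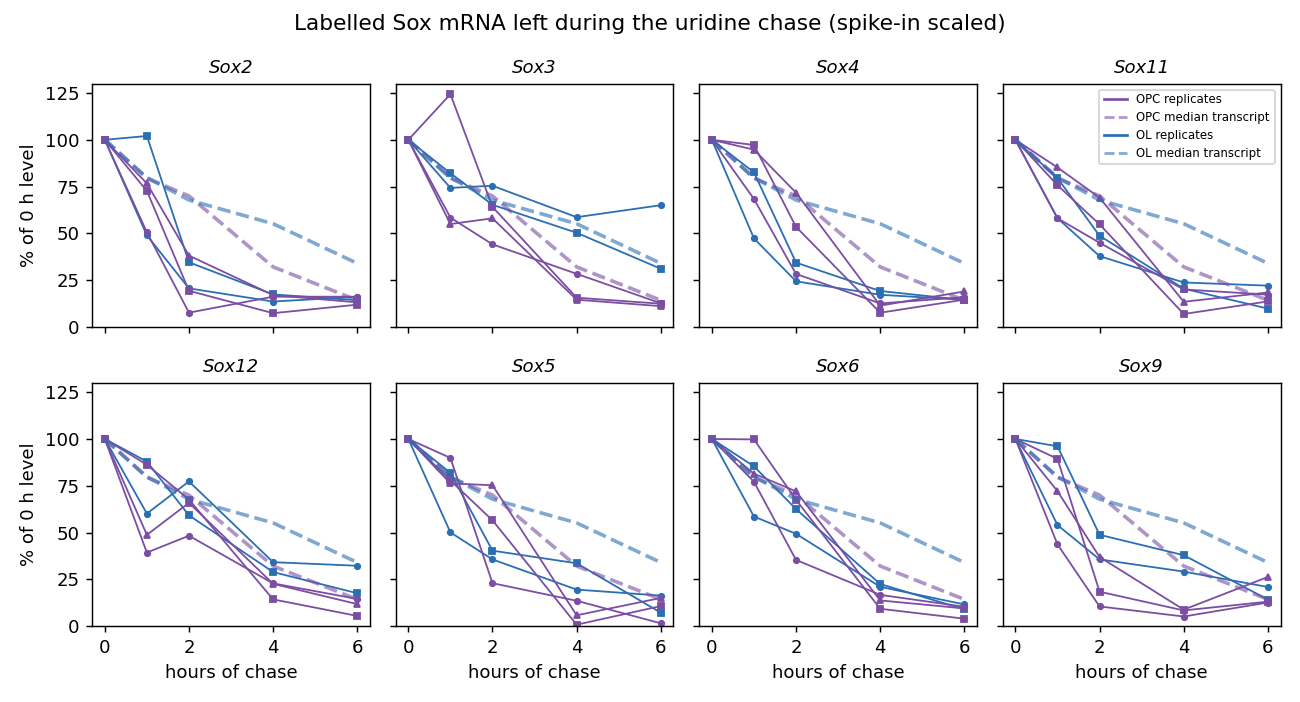
Percent of the 0 h level left against hours of chase for each Sox mRNA in OPC replicates (purple) and OL replicates (blue), with the mean over replicates of the library median dashed. At 4 h the OPC lines lie below the dashed OPC median in all 8 panels, and Sox3 is the panel in which the OL lines stay near or above the dashed OL median.

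Slopes of log2(FPKM + 1) per hour, with each replicate given its own intercept, were negative and past the threshold for all 8 in OPCs, where 81.9% of transcripts fell, and for all 8 in OLs, where 68.9% did. In OPCs they ran from −0.60 ± 0.06 for Sox6 (limma adjusted p = 1.03e-08) to −0.45 ± 0.07 for Sox5 (limma adjusted p = 7.30e-06), with a median of −0.48 against −0.38 over all transcripts. In OLs they ran from −0.53 ± 0.04 for Sox6 (limma adjusted p = 1.64e-07) to −0.17 ± 0.04 for Sox3 (limma adjusted p = 0.00200), with a median of −0.39 against −0.20. Libraries of a replicate count as separate points in these fits, so the p-values do not measure the spread of slopes between replicates. The order of the slopes depended on the settings. With a pseudocount of 0.1 the OPC slope of Sox5, the gene with the lowest FPKM, was −0.71 and that of Sox6 −0.68, so that Sox5 was the steepest. Without the 6 h libraries Sox9 was the steepest in OPCs (−0.90, against −0.47 with them), Sox2 (−0.73), Sox4 (−0.83) and Sox5 (−0.68) also moved by over 1.5 times, and in OLs Sox2 was the steepest (−0.69). The slope of Sox3 in OLs no longer passed without OL replicate 2 (−0.09, limma adjusted p = 0.320).

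Part of each slope is shared by the whole library. When every library was set to the median of its replicate's 0 h library, the median slope of all transcripts moved from −0.38 to −0.02 in OPCs and from −0.20 to 0.01 in OLs. On this relative scale 6 of the 8 still fell in OLs, where 19.3% of transcripts did, and Sox3 (0.08, limma adjusted p = 0.155) and Sox12 (−0.09, limma adjusted p = 0.139) did not pass. In OPCs only Sox6 still fell (−0.17, limma adjusted p = 0.00751), where 25.2% of transcripts did. In OPCs the position relative to the library median differed between 4 h and 6 h, more for some of the 8 than for others. The part of this in the lost calls was not tested. The level of Sox4 at 4 h was 0.336 ± 0.035 of the library median in OPCs (SD, n = 3) and at 6 h it was 1.17 ± 0.14 of it. Sox9 went likewise from 0.262 ± 0.141 to 1.19 ± 0.30 of the library median. Sox12, which also lost its call in OPCs, went only from 0.634 ± 0.061 to 0.728 ± 0.262. In OLs Sox4 stood at 0.331 ± 0.027 and then 0.429 ± 0.048 (SD, n = 2).

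The late OPC values also rose in their own right. Sox4 and Sox9 were higher at 6 h than at 4 h in all 3 OPC replicates, for example Sox9 from 5.20% to 12.7%, from 8.43% to 13.1% and from 8.86% to 26.3% of the 0 h level. Sox11 and Sox5 did so in OPC replicates 2 and 3. In all, 2, 5 and 4 of the 8 were higher at 6 h than at 4 h in the OPC replicates, where 12.3%, 32.3% and 21.3% of all transcripts were. For OLs the numbers were 2 and 0, where 15.9% and 19.1% of transcripts were. Beside these values, 15.7 to 21.6% of OPC transcripts were listed at 0 at 6 h, against 4.08% and 0.790% of OL transcripts. The part of these zeros and of library depth in the late values was not tested.

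**Figure D3:**
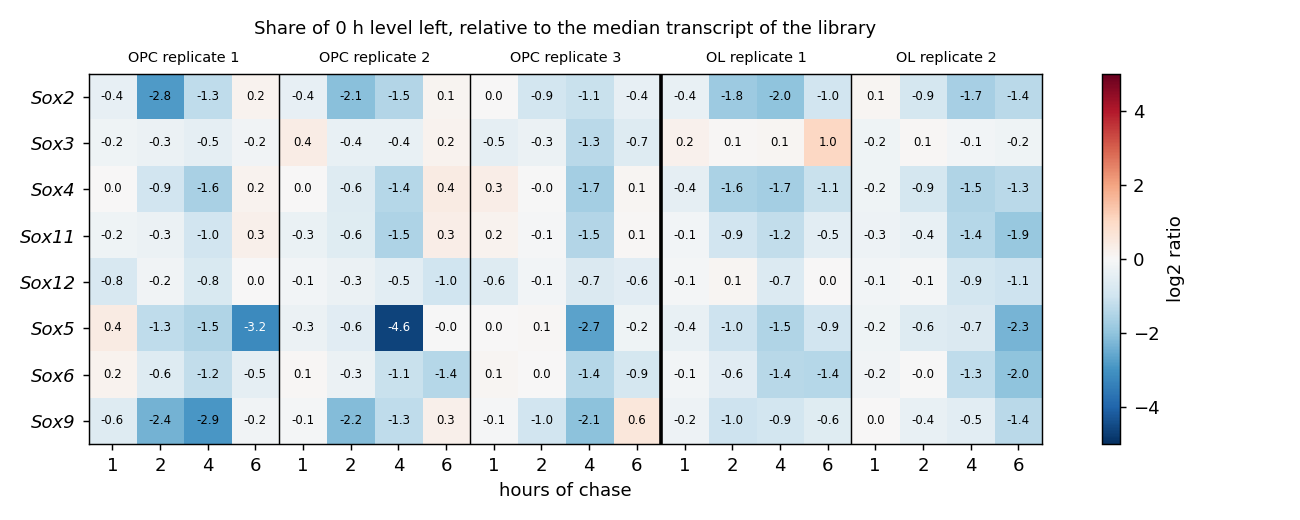
Share of the 0 h level left at 1, 2, 4 and 6 h, divided by that of the median transcript of the same library and given as log2, for 8 Sox mRNAs (rows) in 5 replicates (columns). The 4 h columns of the OPC replicates are below 0 in every row, and Sox3 at 6 h in OL replicate 1 is the highest value.

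The deposited half-lives put the Sox mRNAs among the shorter-lived transcripts. They ran from 0.837 to 2.51 h in OPCs, where the median of all transcripts was 2.35, 2.08 and 2.83 h by replicate, and from 0.971 to 5.20 h in OLs, where the medians were 4.54 and 4.44 h. These medians are over the 8112 transcripts with a half-life in all 5 replicates. Below the median of their replicate stood 8, 6 and 8 of the Sox mRNAs in OPCs, by replicate, and then 7 and 8 of them in OLs. None reached the 6 h ceiling of the half-lives.

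Sox9 had the shortest mean half-life in OPCs, with 0.837, 1.12 and 1.39 h, and 1.35 and 2.13 h in OLs. Sox2 was next by the mean and shorter than Sox9 in OPC replicate 2, with 1.02, 1.07 and 1.57 h in OPCs and 0.971 and 1.59 h in OLs. Sox4 had 1.34, 2.16 and 2.51 h in OPCs and 0.984 and 1.68 h in OLs. These 3 genes overlapped between the cell types. Sox11 had 1.73, 2.09 and 2.46 h in OPCs and 1.43 and 1.93 h in OLs, and Sox5 had 1.39, 1.96 and 2.20 h and then 1.34 and 1.86 h. Sox6 had 1.55, 1.96 and 1.96 h in OPCs and 1.78 and 1.96 h in OLs.

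Sox3 and Sox12 were the 2 whose OL half-lives lay above all OPC ones, as 35.9% of all transcripts did, and for 0 of the 8 they lay below, as for 2.01% of all. Sox3 had 2.02, 2.00 and 1.44 h in OPCs and 5.20 and 3.57 h in OLs, a log2 difference of 1.26 ± 0.27 that did not pass (limma adjusted p = 0.111). A refit of the Sox3 levels in OPC replicate 1 by the same kind of fit gave 1.70 h in place of 2.02 h, the only value of the 8 mRNAs to differ by over 0.01 h. Sox12 had 1.91, 1.96 and 1.95 h in OPCs and 3.68 and 2.39 h in OLs (log2 0.62 ± 0.22, limma adjusted p = 0.228). Without OL replicate 2, the Sox12 difference was 0.93 and passed (limma adjusted p = 0.0211), but then the OL arm is 1 sample, assumed to vary like the OPC replicates, and 1 of the 3 OPC values is a repeated value of the fit, as described next. Without OL replicate 1 the difference was 0.31 (limma adjusted p = 0.0859), and with half-lives refitted without the 6 h libraries it was 0.17 (limma adjusted p = 0.957). For the other 6 the log2 difference ran from −0.59 ± 0.42 for Sox4 (limma adjusted p = 0.526) to 0.63 ± 0.34 for Sox9 (limma adjusted p = 0.415). In all, limma called 0 of the 8, where 3.54% of transcripts were called, though Sox3 reached an unadjusted p of 0.0131. At an unadjusted p under 0.05 the count was 1, beside 23.0% of all transcripts. The median log2 difference was 0.05 over the 8 and 0.37 over all transcripts tested. An exact permutation test of 3 replicates against 2 cannot give a p below 0.1 and was not run.

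Equal half-lives need care. The value 1.957 h occurred for Sox5, Sox6 and Sox12 in OPC replicate 2, for Sox6 in OPC replicate 3 and for Sox6 in OL replicate 2. It was shared by 2174 transcripts (25.6%) of OPC replicate 2, by 182 and 631 of the other OPC replicates, and by 46 and 134 of the OL replicates. All of these transcripts lay above the curve of that half-life (70.2%, 49.2%, 24.3% and 11.9% left at 1, 2, 4 and 6 h) at 1 and 2 h and below it at 4 and 6 h, a setting in which the fit by least absolute deviations returns this value whatever the levels are. In OPC replicate 2 the 3 mRNAs that share it had 0.824% (Sox5), 9.32% (Sox6) and 14.3% (Sox12) left at 4 h. The equality therefore carries no information on how alike they decay, and it narrows the spread between replicates of Sox6.

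Relative to the other transcripts, 5 of the 8 stood lower in OLs. A percentile is the rank of a half-life among the transcripts of its replicate. Transcripts that share the value 1.957 h are ordered by digits of the fit that carry no information, so in OPC replicate 2 the percentiles of Sox5, Sox6 and Sox12 could be anywhere from 21.4 to 46.7, and in OPC replicate 3 that of Sox6 from 26.4 to 33.8. Sox4 was at 21.4 to 51.8 in OPCs and at 3.02 and 5.62 in OLs, Sox11 at 33.2 to 50.4 and then 10.3 and 9.73, Sox5 at 23.0 to 39.5 and then 8.95 and 8.22, Sox6 at 28.0 to 35.2 and then 16.8 and 10.5, and Sox2 at 6.83 to 18.1 and then 2.90 and 4.22. In these 5 both OL replicates lay below all OPC replicates, as was so for 30.6% of transcripts, and counting equal half-lives as ties left 5 (31.1% of transcripts). None lay above, where 15.3% did. Sox3, Sox12 and Sox9 overlapped, with Sox3 at 15.3 to 47.8 in OPCs and at 54.1 and 39.9 in OLs. With half-lives centred on the median of their replicate, the log2 difference was −1.49 for Sox4, −1.22 for Sox11 and −1.10 for Sox5. These shared a limma adjusted p of 0.0509, since the adjustment can give transcripts of neighbouring rank the same value. On that scale the median log2 difference over all 8112 transcripts was −0.53. Of these transcripts, 3205 had an unadjusted limma p under 0.05, and only 1 was called.

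**Figure D4:**
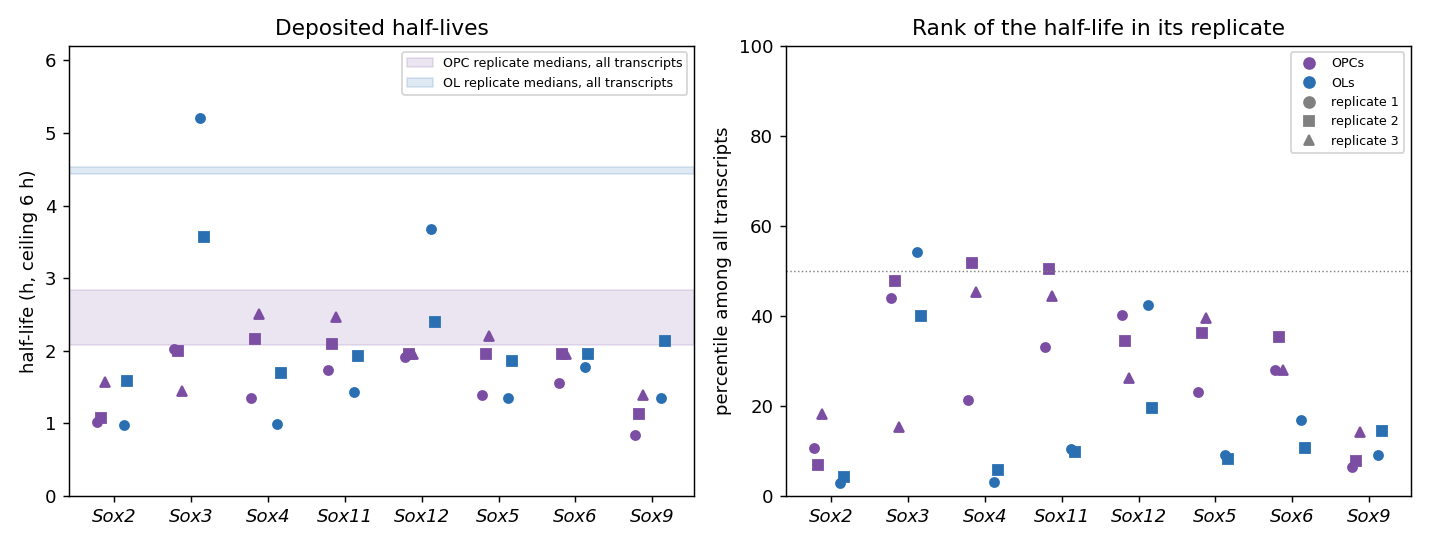
Left, deposited half-lives in hours for 8 Sox mRNAs in 3 OPC (purple) and 2 OL (blue) replicates, with bands for the range of replicate medians over all transcripts. Right, the percentile of each half-life in its replicate, where the OL points of Sox2, Sox4, Sox11, Sox5 and Sox6 lie below all of their OPC points.

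The difference between the slopes, which does not use the ceiling, tested whether decay was less steep in OLs. It was called for Sox3 alone, at 0.31 ± 0.07 log2 units per hour (limma adjusted p = 0.00222), where 31.5% of transcripts were called less steep in OLs and 0.404% steeper. Of the 8, 2 (Sox3 and Sox12) had an unadjusted p under 0.05, as did 43.2% of all transcripts. The fit counts the libraries of a replicate as separate points around a slope shared by its cell type. Its p therefore does not measure the spread of slopes between replicates. By replicate, the slope of Sox3 was −0.41, −0.56 and −0.50 in OPCs and −0.09 and −0.25 in OLs. At 6 h Sox3 kept 12.7%, 12.5% and 11.2% of its 0 h level in OPCs and 65.1% and 31.1% in OLs. The slope difference did not pass without OL replicate 1 (0.23, limma adjusted p = 0.103) nor with every library set to its 0 h median (0.09, limma adjusted p = 0.286), where 24.0% of transcripts were called steeper in OLs and 0 of the 8 were. On that last scale the median difference of all transcripts moved from 0.14 to −0.03.

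For the other 7 the difference ran from 0.00 ± 0.12 for Sox2 (95% interval −0.25 to 0.24) to 0.18 ± 0.08 for Sox12 (limma adjusted p = 0.0753), which passed without OPC replicate 1 (0.24, limma adjusted p = 0.0296) but was 0.10 without OPC replicate 2 (limma adjusted p = 0.366) and 0.11 without OL replicate 1 (limma adjusted p = 0.476). Sox9 differed by 0.08 ± 0.12 (limma adjusted p = 0.628) over the whole chase, but by 0.50 (limma adjusted p = 0.00561) without the 6 h libraries. Leaving out 1 replicate gave 0.02 to 0.15 for Sox9 over the whole chase, with no call. At 4 h Sox9 had 5.20%, 8.43% and 8.86% left in OPCs against 29.2% and 37.9% in OLs, while at 6 h it had 12.7%, 13.1% and 26.3% against 21.0% and 14.2%. Of the 21 partners and targets, 7 were called less steep in OLs, where 31.5% of all transcripts were, and 0 steeper. In OPCs 21 of the 22 listed partners fell, beside 81.9% of all transcripts, and in OLs 19 of 23 did, beside 68.9%. By half-life, where 3.54% of all transcripts were called, 1 of 20 partners, the deacetylase gene Hdac2, was called, with a shorter half-life in OLs (log2 −0.89, limma adjusted p = 0.0315).

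Genes whose pattern over the 25 libraries was most like that of each Sox mRNA were named by Pearson's r of log2(FPKM + 1). The points share the same chase and the same library scales, so a high r was common, with medians over all transcripts of 0.458 for Sox11 to 0.765 for Sox6. Sox2 was closest to Sox21 (0.970) and Zfp281 (0.970), and Sox3 to Med13l (0.969) and Pik3r4 (0.967). Sox4 was closest to Btg1 (0.975) and Akap8 (0.974), Sox11 to Prr11 (0.976) and Ets1 (0.971), and Sox12 to Pde3b (0.976) and Golt1b (0.966). Sox5 was closest to Nsd1 (0.960) and Baz1b (0.958), Sox6 to Pigm (0.985) and Atl3 (0.983), and Sox9 to Kbtbd7 (0.977) and Urgcp (0.966). No other Sox gene than Sox21 was among these neighbours.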

How the data were processed

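Reads were aligned by the authors to GRCm38 with HISAT2 2.1.0 and quantified with StringTie 1.3.5 (submitters' processing notes) over canonical coding transcripts of GENCODE vM9. The authors brought the FPKM values to the scale of 5-EU-labelled LYSa and luciferase spike-ins, at every time point per the study's methods, leaving out those under 1 FPKM at 0 h. Here the 0 h columns were nevertheless read as unscaled, since their values carry up to 10 significant digits and those of all later columns at most 6. An error in a spike-in scale moves every transcript of a library. The deposited half-lives (hours) are the authors' least absolute deviation fits of an exponential decay, set here to 6 h at the ceiling. A control without biotin (1 of 26 samples) was not analysed here, so background was not subtracted. Depth is unknown.

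Groups came from the labels. Tests were limma 3.58.1 (R 4.3.3) on log2(FPKM + 1), with a mean-variance trend, or on log2 half-life, with Benjamini-Hochberg adjustment over all transcripts. They were also run on simulated data with independent errors of a common size. Those data held no 6 h ceiling, repeated half-lives or shifts of whole libraries, so that check does not cover these features. Each replicate had its own intercept in the slopes, since each time point belongs to the 0 h library of its replicate. The replicates of a cell type shared a slope, so p-values of slopes do not measure the spread between replicates. Sequence features were read from GENCODE M21, matched by transcript identifier. All 8 listed genes were named. Lists of other Sox genes, partners, targets and markers were counted whole, naming those called at 0 h, the 1 partner called by half-life and Sox8 and Sox10, and the 2 transcripts most alike were named for each gene. Sox1 and Gfap were named after their values were seen. The members and lists were chosen with earlier results of these data known. Alternatives were another pseudocount, a filter at 5 FPKM, other scalings, refitted half-lives, chases without 6 h, other replicate blocks and leaving out each replicate.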

Additional observations from a re-analysis of the deposited data

Results flagged for a closer look

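The slope of Sox3, a SoxB1 factor, differed between the cell types by the interaction test. It was less steep in OLs by 0.31 log2 units of FPKM + 1 per hour, with an adjusted p of 0.00222 from limma. Its slopes were −0.41, −0.56 and −0.50 in OPCs (n = 3) and −0.09 and −0.25 in OLs (n = 2). The p is from the scatter of libraries around shared slopes and does not measure the spread between these replicates. Without OL replicate 1 the difference was 0.23 (limma adjusted p = 0.103), and with each library set to its 0 h median it was 0.09 (limma adjusted p = 0.286). The cause was not tested. No group had the 4 or more samples needed to look for a sample far from the others.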

How the results depend on the processing

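The members' calls at 0 h (Sox2, Sox6, Sox11 and Sox12) kept direction and threshold under all 9 alternatives, with adjusted p up to 0.0467 (limma, Sox12). That value comes without OL replicate 1, and leaving out an OL replicate leaves 1 sample, assumed to vary like the OPC replicates, so those fits say little about stability. Ties in half-life were added as an alternative after seeing the data and left 5 members lower in percentile in OLs. Of 360 values for single genes under an alternative, 319 kept direction and side of the threshold, 8 kept direction but no longer passed, 4 newly passed and 29 turned sign. Of those 29, 4 had passed as reported (the slopes of Sox2, Sox11 and Sox9 in OPCs and of Sox3 in OLs, with each library set to its 0 h median) and 0 passed after the turn, so that 12 calls were lost in all. The cause was not tested where a value changed. Low spread from repeated half-lives, 2 OL replicates and unknown depth limit all of these values.

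Setting each library to its 0 h median left 1 Sox mRNA falling in OPCs and 0 slope differences. The slope turned to 0.0195 (Sox2), 0.00518 (Sox11) and 0.00912 (Sox9) in OPCs and to 0.0757 (Sox3) in OLs, and the slope difference to −0.188 (Sox4), −0.196 (Sox11), −0.0592 (Sox12), −0.00225 (Sox5), −0.127 (Sox6) and −0.156 (Sox9). Over all transcripts the slope differences called less steep and steeper were then 830 and 1963, against 2576 and 33. Rising and falling slopes were 2894 and 2146 in OPCs (432 and 6989 before) and 3015 and 1879 in OLs (193 and 6716 before). Without the 6 h libraries, 2 members (Sox3 and Sox9) and 1610 of all transcripts differed in slope, and Sox2 turned to 0.0407, as it did to 0.0146 with a pseudocount of 0.1.

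Half-lives over all transcripts gave 287 calls, 30 when refitted without 6 h, 1 when centred on replicate medians, and 283 where all libraries shared 1 mean decay curve, of which 88 were longer in OLs and 195 shorter, against 275 and 12. Centring turned the log2 difference to −0.85 (Sox2), −0.29 (Sox12), −0.86 (Sox6) and −0.27 (Sox9), and the shared curve to −0.175 (Sox2), −0.0430 (Sox12) and −0.0207 (Sox6). The refit without 6 h gave −0.21 for Sox6. With centring, the median log2 difference over all transcripts was −0.53.

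Leaving out 1 replicate moved the calls over all transcripts from 2586 to between 1183 and 2912 at 0 h, from 287 to between 167 and 236 by half-life and from 2609 to between 765 and 2668 by slope difference, and the members called to 0 to 1 by half-life and 0 to 2 by slope difference. Values of single genes that turned sign then ran from −0.672 (without OPC replicate 1) to 0.0812 (without OPC replicate 2) for Sox5 at 0 h. By half-life the range was −0.298 to 0.410 for Sox2 and −0.433 to 0.0332 for Sox5, in both cases without OL replicate 2 and 1, and −0.0686 (without OPC replicate 1) to 0.112 (without OL replicate 1) for Sox6. The slope difference of Sox2 ran from −0.0500 (without OL replicate 1) to 0.0510 (without OPC replicate 1).

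The study states that the OLs shared starting cells with some OPC replicates, but not which numbers correspond. Deviations of same-numbered replicates from their group means had r = 0.0589 and 0.0102 at 0 h and −0.00162 and −0.105 by half-life. Other numberings gave up to 0.0897 at 0 h and 0.105 by half-life. With 2 OL replicates, r with OL replicate 1 is always the negative of r with OL replicate 2. These values therefore cannot settle the pairing. A replicate block over the shared numbers left 4 members called at 0 h and 0 by half-life, with 2253 and 0 calls over all transcripts. Dropping the block from the slopes changed no member's call, with 2271 slope differences called against 2609.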
